A study of Mus musculus with 6 samples.

Results

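The subunits of oxidative phosphorylation were taken as the protein-coding genes on autosomes whose symbols name a subunit of respiratory complexes I to IV or of ATP synthase (Nduf followed by a, b, c, s or v and a number, Sdha to Sdhd, Uqcr, Cox4 to Cox8 and Atp5). In the GENCODE annotation of the mouse genome build GRCm38 this gave 81 entries with 80 distinct symbols on 18 chromosomes, of 20722 protein-coding autosomal genes. A further 3 genes matched by symbol but are X-linked and were left out (Cox7b, Ndufa1 and Ndufb11). Of the 81 entries, 72 belong to subunits that are used in most tissues, 7 are tissue-specific isoforms of complex IV subunits, and 2 are associated proteins, Cox7a2l, which takes part in joining complexes III and IV, and Atp5s. Ndufa4 was counted in complex IV, where the protein is known to reside, in spite of its complex I name.

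Acetylation of lysine 27 of histone H3 (H3K27ac) was measured by chromatin immunoprecipitation and sequencing in mouse embryonic stem cells of a single line, E14Tg2A Rosa26-Cre Oct4-IRES-Puro, grown in N2B27 medium with LIF and the inhibitors PD0325901 and CT-99021. The samples form 3 groups of 2 replicates: control cells given the solvent DMSO, cells given 100 nM of the CDK9 inhibitor NVP-2 for 120 min, and cells given 800 nM actinomycin D, which blocks transcription by binding DNA, for 120 min. All samples had a spike-in from human HEK293 cells (HEK293T chromatin in the methods). The values used here are the positions of 22973 peaks in control cells, 1 list pooled over both control replicates, and the treated samples were not analysed here. The list gives no peak height and no read depth, so a promoter was either marked or not, and no replicate error can be given. A promoter was called marked when a peak overlapped the 2001 bases from 1 kb before to 1 kb after the transcription start site (TSS) by at least 1 base. The Wilson intervals given with shares are at the 95% level and cover counting error only. By this call, 8 of 10 genes known from embryonic stem cells were marked, Klf4 and Esrrb being the exceptions, and 0 of 6 genes of differentiated cells (Alb, Myod1, Neurod1, Gata1, Afp and Myh6) were marked.

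In oxidative phosphorylation, complexes I and II pass electrons from NADH and succinate to ubiquinone, complex III passes them on to cytochrome c and complex IV to oxygen. Complexes I, III and IV pump protons across the inner mitochondrial membrane, and ATP synthase uses the gradient to make ATP. Most subunits are encoded in the nucleus and are needed in nearly every cell, while several complex IV subunits also have isoforms that are known from heart and skeletal muscle, lung or testis. H3K27ac is laid down by the acetyltransferases CBP and p300 and is found at active promoters and enhancers.

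The promoter sequences of 7 members are shown, as examples of the sequence before marked and unmarked isoforms and of the motif letters counted. Each is the 250 bases before the TSS, read 5′ to 3′ on the gene's strand from the GRCm38 genome, and capitals mark exact matches, on either strand, to any of the 8 motifs given further on. The first pair is Cox4i1, the ubiquitous form of a complex IV subunit (chr8:120667972-120668221 on the plus strand), and Cox4i2, its lung isoform (chr2:152753923-152754172 on the plus strand). The second pair is Cox8a (chr19:7217617-7217866 on the minus strand) and Cox8b, its isoform of heart and skeletal muscle (chr7:140900447-140900696 on the minus strand). Cox4i1 and Cox8a were marked, Cox4i2 and Cox8b were not.
Cox4i1: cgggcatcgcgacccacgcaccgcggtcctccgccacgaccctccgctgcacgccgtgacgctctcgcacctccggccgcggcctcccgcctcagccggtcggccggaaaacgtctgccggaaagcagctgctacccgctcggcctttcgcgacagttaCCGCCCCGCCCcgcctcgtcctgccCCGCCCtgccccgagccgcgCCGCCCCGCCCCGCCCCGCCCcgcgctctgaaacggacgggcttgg
Cox4i2: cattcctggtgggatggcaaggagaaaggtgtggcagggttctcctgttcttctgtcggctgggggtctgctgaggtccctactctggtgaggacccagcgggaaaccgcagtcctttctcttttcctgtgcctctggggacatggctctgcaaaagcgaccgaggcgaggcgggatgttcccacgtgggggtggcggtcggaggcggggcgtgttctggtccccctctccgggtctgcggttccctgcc
Cox8a: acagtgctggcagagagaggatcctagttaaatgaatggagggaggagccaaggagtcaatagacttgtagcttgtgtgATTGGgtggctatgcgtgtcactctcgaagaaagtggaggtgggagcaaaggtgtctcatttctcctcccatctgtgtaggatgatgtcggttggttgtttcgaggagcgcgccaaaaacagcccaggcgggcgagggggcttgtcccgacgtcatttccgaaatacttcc
Cox8b: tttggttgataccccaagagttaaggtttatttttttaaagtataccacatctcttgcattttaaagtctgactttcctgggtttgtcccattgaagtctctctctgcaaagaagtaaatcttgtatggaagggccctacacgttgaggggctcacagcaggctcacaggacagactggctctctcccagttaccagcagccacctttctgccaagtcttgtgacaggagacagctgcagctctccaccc

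The runs of capitals before Cox4i1 are matches to the letters bound by SP and KLF factors, some of which overlap. Cox4i2 and Cox8b have no match in these bases. The next pair are the tissue-specific isoforms whose promoters were marked, Cox7a1 of heart and skeletal muscle (chr7:30183894-30184143 on the plus strand) and Cox6b2 of testis (chr7:4753095-4753344 on the minus strand), and the last is Sdhd, a membrane anchor of complex II (chr9:50603813-50604062 on the minus strand), which holds matches for 4 of the 8 motifs when the first 50 bases after the TSS are counted.
Cox7a1: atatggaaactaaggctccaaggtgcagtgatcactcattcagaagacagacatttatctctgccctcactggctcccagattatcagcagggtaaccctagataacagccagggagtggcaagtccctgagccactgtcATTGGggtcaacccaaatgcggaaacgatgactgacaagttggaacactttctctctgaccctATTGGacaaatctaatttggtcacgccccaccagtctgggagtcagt
Cox6b2: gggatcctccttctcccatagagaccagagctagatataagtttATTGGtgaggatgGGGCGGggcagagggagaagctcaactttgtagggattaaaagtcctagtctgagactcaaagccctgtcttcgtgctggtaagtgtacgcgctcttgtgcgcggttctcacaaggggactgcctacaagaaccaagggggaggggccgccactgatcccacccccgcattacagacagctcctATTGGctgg
Sdhd: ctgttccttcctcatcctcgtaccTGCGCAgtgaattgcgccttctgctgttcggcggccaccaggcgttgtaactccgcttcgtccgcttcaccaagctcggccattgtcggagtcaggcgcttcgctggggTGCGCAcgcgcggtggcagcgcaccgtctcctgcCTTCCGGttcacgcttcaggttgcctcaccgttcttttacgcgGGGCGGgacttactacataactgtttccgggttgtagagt

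H3K27ac peaks lay at nearly all ubiquitous subunits and at a minority of the tissue-specific isoforms. Of the 81 entries, 75 were marked (92.6%, interval 84.8 to 96.6%), beside 50.1% of all protein-coding autosomal genes. Among the ubiquitous subunits 71 of 72 were marked (98.6%, 92.5 to 99.8%), and among the tissue-specific isoforms 2 of 7 (28.6%, 8.22 to 64.1%). None of the 7 has a CpG-rich promoter (as defined further on), and 25.1% of all genes without one were marked, so the isoforms' share is near that background. Both associated proteins were marked. The 75 marked members lay under 75 distinct peaks, so that no peak served more than 1 member.

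**Figure D1:**
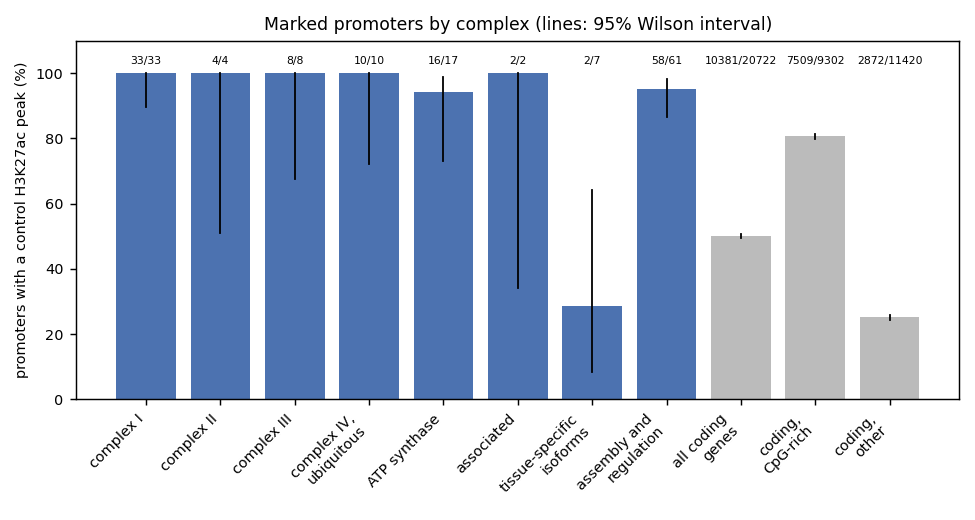
Share of promoters with a control H3K27ac peak within 1 kb of the TSS (percent, vertical axis) for each complex, for tissue-specific isoforms, for assembly and regulatory genes and, in grey, for all protein-coding autosomal genes and their CpG-rich and other promoters. Lines are 95% Wilson intervals and the counts stand above the bars: the ubiquitous groups lie at 94.1% or above, while the tissue-specific isoforms lie at 28.6%.

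Complex I, the NADH dehydrogenase, was marked at 33 of 33 nuclear subunits (lower bound 89.6%). These include the 7 nuclear-encoded core subunits, most of which carry the flavin, iron-sulfur clusters or the quinone site, such as Ndufs1, Ndufs7, Ndufv1 and Ndufv2, and 26 accessory subunits. The core subunits lay under peaks of 1265 bp (Ndufs7) to 13776 bp (Ndufv2), with a median of 2515 bp. The accessory subunits had a median of 1878.5 bp and reached from 923 bp at Ndufa8 to 7096 bp at Ndufs6. At Ndufa8, an accessory subunit on the intermembrane space side, the peak began 42 bp downstream of the TSS. The peak was listed at chr2:36048442-36049364, the narrowest of all members.

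Complex II, succinate dehydrogenase, was marked at 4 of 4 subunits. The flavin-carrying subunit Sdha lay under 1934 bp, the iron-sulfur subunit Sdhb under 5315 bp, and the membrane anchors Sdhc and Sdhd under 1685 and 1992 bp. In complex III, 8 of 8 subunits were marked, with a median width of 2439 bp. The Rieske iron-sulfur protein Uqcrfs1 had the narrowest peak of this complex (1629 bp), the large core proteins Uqcrc1 and Uqcrc2 had 1801 and 1998 bp, and the small subunit Uqcr10 had the widest (8014 bp).

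In complex IV, cytochrome c oxidase, 10 of 10 ubiquitous nuclear subunits were marked. Cox8a (10444 bp), Cox6a1 (9277 bp), Cox4i1 (8198 bp) and Cox5a (5110 bp) lay under peaks of 5 kb or more, and the other 6 under 1237 bp (Cox6c) to 2088 bp (Ndufa4). By width the peaks thus fell into a wide and a narrow set. The wide peak of Cox4i1 also held the TSS of Emc8 and Gm27021, and that of Cox6a1 those of Gatc, Triap1 and Gm42903. The peaks of Cox8a and Cox5a and the narrow ones held no TSS of another protein-coding or lincRNA gene. The part of shared starts in the widths was not tested. The TSS of Cox7c lay 11 bp outside its 1787 bp peak, which began downstream of it. Ndufa8 and Cox7c were the only ubiquitous members among the 71 marked whose TSS was not itself inside the peak.

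ATP synthase was marked at 16 of 17 entries (94.1%, 73.0 to 99.0%). In the catalytic F1 part, 5 of 5 were marked: Atp5a1 and Atp5b, the alpha and beta subunits, Atp5c1, the gamma subunit of the rotor, and Atp5d and Atp5e, the delta and epsilon subunits. The genes Atp5g1, Atp5g2 and Atp5g3 encode the same mature subunit of the c ring with different import sequences, and 3 of 3 were marked. Their peaks measured 3525, 10430 and 7118 bp. Of the stalk and membrane subunits, 8 of 9 entries were marked.

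The unmarked entry is a second annotation of Atp5o, the subunit that joins the stalk to the F1 head. Atp5o itself (ENSMUSG00000022956.11) was marked by a peak of 1822 bp. The second entry of the same name, ENSMUSG00000116933.1 at chr16:91684398-91926982, holds a single transcript whose annotation says that its start was not found, and the position used as its TSS lay 3413 bp from the nearest peak. Without this entry, 71 of 71 ubiquitous subunits and 16 of 16 ATP synthase subunits were marked.

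**Figure D2:**
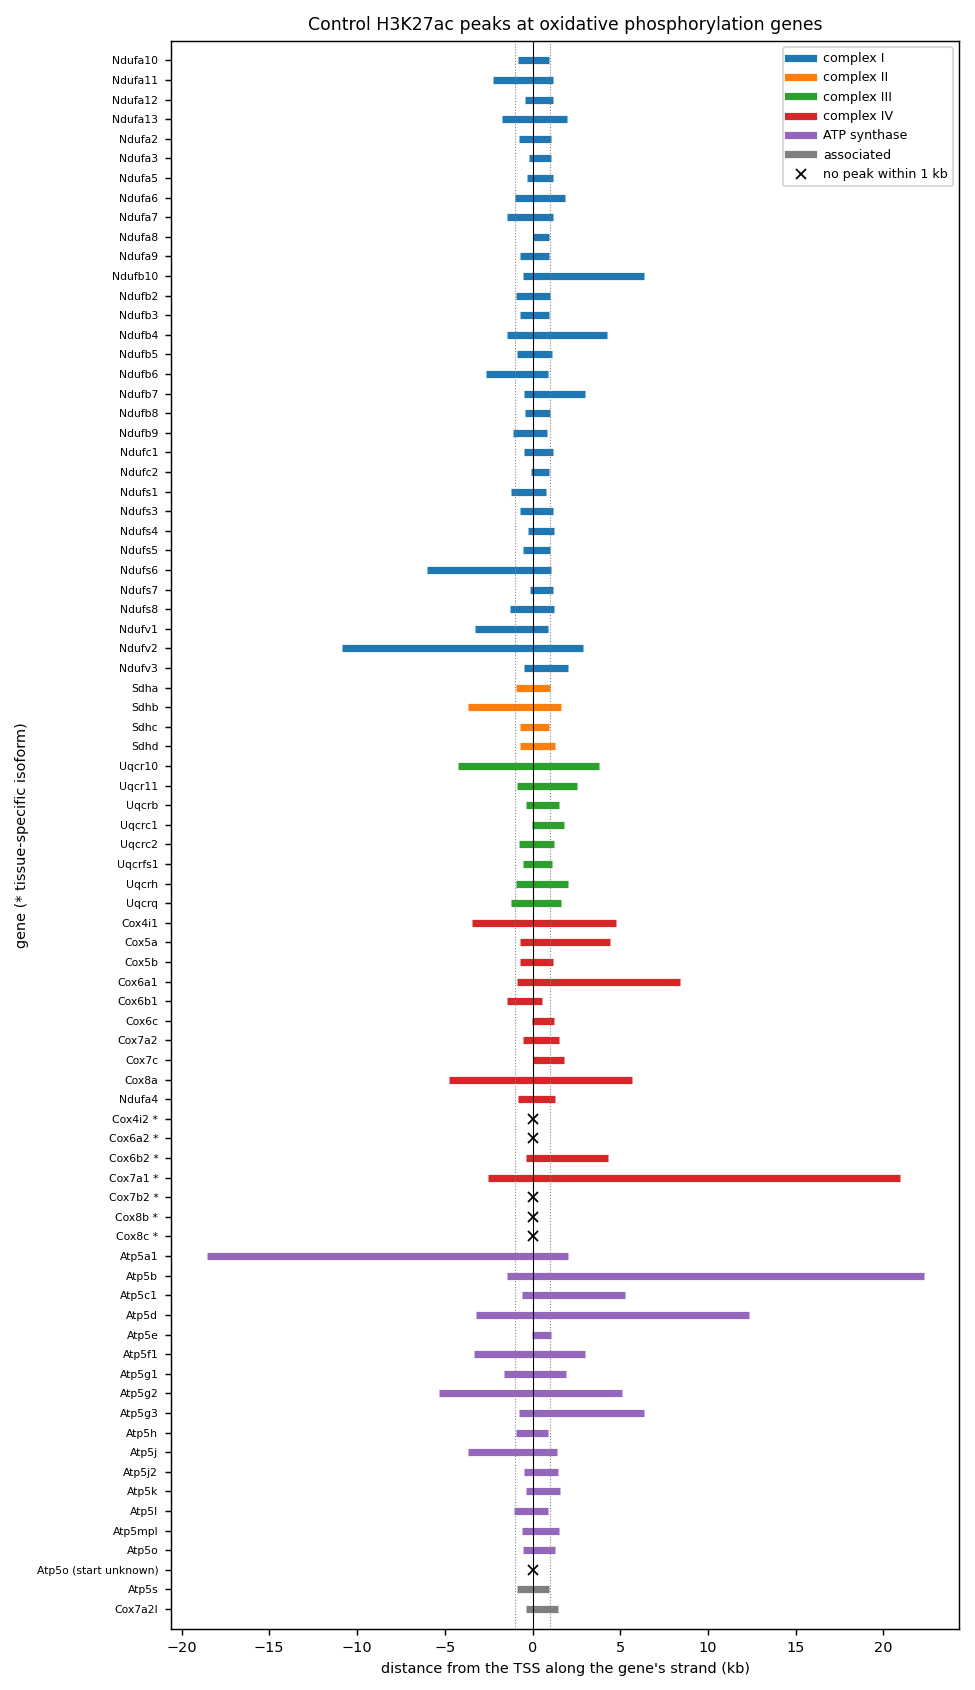
Extent of the control H3K27ac peak at 80 of the 81 entries (1 is not reported here by name), as distance from the TSS along the gene's strand (kb, horizontal axis), coloured by complex, with dotted lines 1 kb to each side of the TSS and crosses where no peak lay within it. The 5 crosses in complex IV are tissue-specific isoforms, the cross under ATP synthase is the Atp5o entry of unknown start, and the longest bars belong to Atp5b, Cox7a1 and Atp5a1.

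Of the tissue-specific isoforms, Cox4i2, Cox6a2, Cox8b and Cox8c were unmarked while their ubiquitous partners were marked, and Cox6b2 and Cox7a1 were marked as their partners were. Cox4i2 had no peak within 1 kb while Cox4i1 had one of 8198 bp. The nearest peak to the Cox4i2 TSS began 9622 bp downstream, near the end of the gene, and ran past it (chr2:152763795-152775284). Cox6a2, the muscle isoform of Cox6a1, lay 30530 bp from the nearest peak, and Cox7b2, a testis isoform whose partner Cox7b is X-linked, lay 618.911 kb from one. Of the isoforms of Cox8a, the testis form Cox8c lay 20118 bp from a peak.

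Cox8b came closest to the limit, since the edge of a 7770 bp peak at chr7:140902079-140909848 lay 1633 bp upstream of its TSS. With a window of 2 kb on each side Cox8b was marked, and it was the only member whose call was gained under the 8 other definitions of a marked promoter. Cox6b2 and Cox7a1 were marked under all 8. The Cox6b2 peak at chr7:4748812-4753456 (4645 bp) reached over the whole gene (chr7:4751792-4753094) and held no other TSS, and it was wider than the 2001 bp peak of the ubiquitous Cox6b1. The Cox7a1 peak at chr7:30181603-30205062 was 23460 bp wide, beside 2008 bp at its partner Cox7a2. It also held the TSS of Capns1, the small regulatory subunit of calpains, at position 30198811. Which of the genes under this peak the mark belongs to was not tested.

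Since the number of tissue-specific isoforms is 7, their share has a wide interval that includes the 50.1% of all genes. Their promoters also differed in sequence from those of the ubiquitous subunits. A promoter was called CpG-rich when the 300 bases from 250 before to 50 after the TSS had a GC content of at least 50% and an observed to expected ratio of CpG of at least 0.6. By this measure 0 of 7 tissue-specific isoforms and 48 of 72 ubiquitous subunits (66.7%, 55.2 to 76.5%) were CpG-rich, beside 44.9% of all protein-coding autosomal genes and 72.3% of the marked ones. The tissue-specific isoforms had CpG ratios of 0.115 (Cox8b) to 0.564 (Cox7b2) with a median of 0.432, and the ubiquitous subunits had a median of 0.804. Cox4i1 had the highest ratio of any member (1.20, at a GC content of 75.3%), while Cox4i2 reached 0.538 at 63.3% GC.

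**Figure D3:**
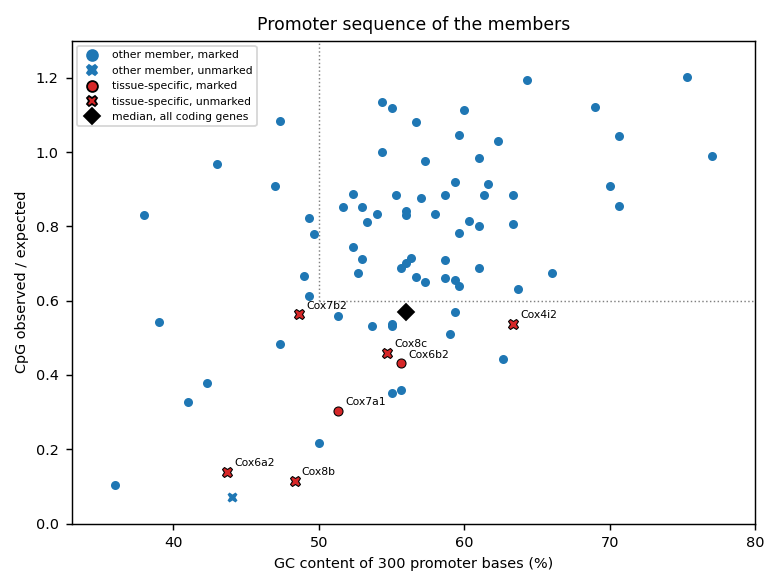
GC content (percent, horizontal axis) and observed to expected ratio of CpG (vertical axis) of the 300 promoter bases of each of the 81 entries, with dotted lines at the limits for a CpG-rich promoter, circles for marked and crosses for unmarked entries, and the median of all protein-coding autosomal genes as a diamond. The 7 tissue-specific isoforms, in red, lie below a ratio of 0.6, and several marked subunits, in blue, lie there too.

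CpG content and marking went together over the genome: 80.7% of CpG-rich promoters were marked, beside 25.1% of the others. The ubiquitous subunits were marked on both sides of this limit. All 48 with a CpG-rich promoter were marked (lower bound 92.6%), and of the 24 with another sequence 23 were marked (95.8%, 79.8 to 99.3%), the Atp5o entry of unknown start being the exception. Cox7c (GC 39.0%, ratio 0.543) and Uqcrc1 (GC 55.0%, ratio 0.536) are examples of marked subunits that miss the limits. Atp5a1, the alpha subunit, also missed them (ratio 0.532) and lay under 1 of the widest peaks.

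The peaks at ubiquitous subunits were of the usual width for promoters. Their median was 2008 bp (quartiles 1794 and 5076.5 bp, 71 peaks), and that of the 8935 peaks at promoters of protein-coding autosomal genes was 2004 bp (quartiles 1470 and 4310.5 bp). Peaks below 1 kb were rare among the subunits, with 1 of 71 (1.41%, at Ndufa8) beside 12.1% of all such peaks. Peaks of 5 kb or more made up 26.8% of the subunits' peaks (19 of 71) and 21.3% of all. Peaks within 2 kb of each other had been joined before deposit, so a wide peak can be several neighbouring regions.

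Among the complexes, ATP synthase had the highest median width, 4284 bp, with 8 of its 16 peaks at 5 kb or more, while complex I had a median of 1952 bp with 5 of 33. The wide peaks lay mostly at the F1 part (median 15529 bp, 5 peaks) and the c ring (7118 bp, 3 peaks), while the 8 stalk and membrane peaks had a median of 1944.5 bp. Another TSS lay in 7 of the 16 ATP synthase peaks (4 of 5 in F1, 0 of 3 in the c ring), beside 13 of 33 in complex I. The part of shared starts in this ranking was not tested. The 5 members under the widest peaks were Atp5b (23765 bp), Cox7a1 (23460 bp), Atp5a1 (20567 bp), Atp5d (15529 bp) and Ndufv2 (13776 bp). Each of these peaks held the TSS of at least 1 other gene. The peak of Atp5b also held Baz2a, a subunit of a nucleolar remodelling complex, and the lincRNA Gm47438. That of Atp5a1 held Haus1, a subunit of the augmin complex, that of Atp5d held Cbarp and Midn, and that of Ndufv2 held Washc1. The 5 narrowest lay at Ndufa8 (923 bp), Ndufc2 (1004 bp), Atp5e (1123 bp), Cox6c (1237 bp) and Ndufs7 (1265 bp). Widths thus differed by more than 10 kb between subunits of 1 complex, as between Atp5e and Atp5b of the F1 part.

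**Figure D4:**
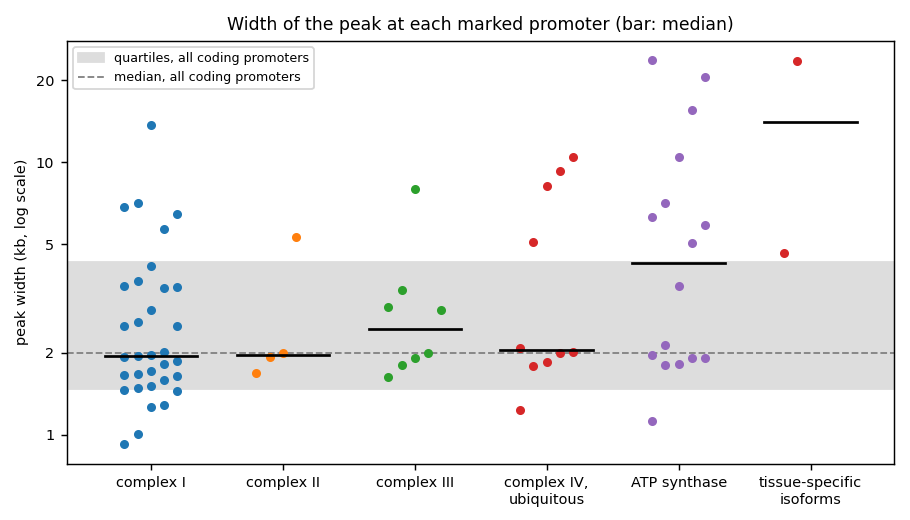
Width of the peak at marked promoters (kb, logarithmic vertical axis), 1 point per member, by complex, with the tissue-specific isoforms apart. The associated proteins are not drawn. Bars mark the group medians, and grey marks the quartiles and dashed median of all protein-coding promoter peaks. Complexes I to IV have medians of 1952 to 2439 bp, near the 2004 bp of all promoters, and ATP synthase has 4284 bp.

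Peaks at the ubiquitous subunits reached further into the gene than away from it. The median edges lay 812 bp upstream and 1255 bp downstream of the TSS (all marked coding genes, 834 and 1158 bp), and the middle of the peak lay downstream of the TSS at 53 of 71 (74.6%, beside 67.4%). Uqcrc1 is an example of a one-sided peak, with its edges at -34 and 1766 bp from the TSS. Cox6b1 had the opposite shape, with edges at -1466 and 534 bp. A second peak inside the gene was found at 6 of 71 (8.45%, beside 30.4% of marked coding genes). The subunit genes are also shorter, with a median length of 7.72 kb beside 23.2 kb for marked coding genes, and the part of gene length in this difference was not tested.

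Many of the ubiquitous subunits had a start site on the opposite strand close by. An opposite-strand TSS of another protein-coding or lincRNA gene (1 TSS per gene) was annotated within 1 kb for 27 of 72 (37.5%, 27.2 to 49.0%). It was annotated for 11.9% of all protein-coding autosomal genes, 20.7% of the marked ones and 20.8% of those with a CpG-rich promoter. The share was 13 of 33 in complex I, 3 of 4 in complex II, 3 of 8 in complex III, 2 of 10 in complex IV and 6 of 17 in ATP synthase. None of the 7 tissue-specific isoforms had such a neighbour. There were 28 pairs, 26 with a protein-coding partner and 2 with a lincRNA, and the median distance between the start sites was 122.5 bp.

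For 27 of the 28 pairs the partner's TSS lay inside the subunit's own peak, and Morn5 beside Ndufa8 was the exception. In these pairs the peak cannot be assigned to the subunit alone. The partners named next are examples picked with their values known. The start of Ndufs1, the largest core subunit of complex I, lay 3 bp from that of Eef1b2, a translation elongation factor, under 1969 bp. That of Ndufa7 lay 80 bp from Rps28, a ribosomal protein. Sdhd was 98 bp from Timm8b, which acts in protein import, Ndufb5 was 157 bp from Mrpl47 and Ndufs6 was 29 bp from Mrpl36, both of the mitochondrial ribosome. Atp5j, a stalk subunit, was 501 bp from Gabpa, which encodes an ETS factor also called NRF2 alpha.

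Exact matches to the letters of 8 motifs were counted in the 300 promoter bases on both strands. NRF1, the ETS factor GABPA, YY1 and ESRRA are known as regulators of respiratory genes. A match is a description, not a bound site or a cause of the mark, and matches that overlap were each counted. The letters TGCGCA, part of the NRF1 motif, were in 16 of 72 ubiquitous promoters (22.2%, 14.2 to 33.1%), beside 9.69% of all protein-coding autosomal promoters, 15.1% of the marked and 17.4% of the CpG-rich ones. They included Sdha, Sdhd, Cox5b, Cox6a1, Atp5d, Atp5g2 and Uqcrc1, and 7 of the 26 accessory subunits of complex I (26.9%). Of its 7 core subunits 0 had them, with an interval of 0 to 35.4% that includes the accessory share.

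The letters CCGGAAG of ETS factors were in 15 of 72 (20.8%, 13.1 to 31.6%), close to the 19.5% of all marked promoters and above the 11.5% of all promoters. They were found at the core subunit Ndufs1, for example, and at Cox8a, Cox6b1 and Cox6a1. The letters AAGATGG of YY1 were in 7 (9.72%, 4.79 to 18.7%, beside 6.29% of all), namely Atp5h, Ndufa2, Ndufa3, Ndufa9, Ndufb7, Ndufb8 and Sdhc. At the promoters of RefSeq, held for 59 of these subunits, the YY1 letters were in 9 (15.3%, 8.24 to 26.5%, beside 6.41% of all RefSeq promoters used). At least 1 of these 3 motifs was present in 31 of 72 (43.1%, beside 24.1% of all), and at least 2 were present in 7 (9.72%, beside 3.14%): Atp5h, Atp5l, Cox6a1, Ndufa9, Ndufb6, Ndufb8 and Sdhd. No ubiquitous promoter held all of them. The Sdhd promoter printed above holds the NRF1 letters with their middle at positions -223 and -114 and the ETS letters at position -80, where the TSS is position 0.

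The letters GGGCGG of SP and KLF factors were less frequent in ubiquitous subunits than in promoters with the same mark: 27 of 72 (37.5%, 27.2 to 49.0%) held them, beside 66.4% of marked, 76.7% of CpG-rich and 45.7% of all promoters. Complex II held them at 4 of 4 and complex III at 1 of 8 (Uqcrq). Cox4i1 had 8 matches. The TATA box letters TATAAA were in 8 (11.1%, beside 12.5% of all and 6.42% of marked promoters) and the NF-Y letters CCAAT in 25 (34.7%, beside 38.3% of all). The CREB letters TGACGTCA were in 5 (6.94%, beside 2.46%), at Atp5d, Ndufa10, Ndufa11, Ndufb2 and Uqcrfs1. The ESRRA letters TCAAGGTCA were in 2, Atp5g3 and Sdhd (2.78%, 0.765 to 9.57%, beside 0.449%). At the TSS used, the intervals of the YY1, TATA, NF-Y and ETS shares include the share of marked promoters, and so do those of NRF1 and CREB.

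**Figure D5:**
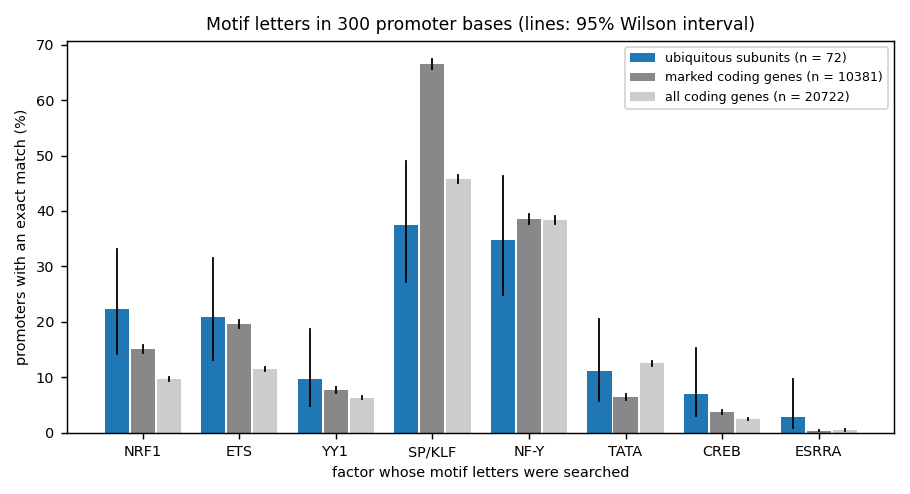
Share of promoters whose 300 bases hold an exact match to the letters of each of 8 motifs (percent, vertical axis), for the 72 ubiquitous subunits in blue, the 10381 marked coding genes in dark grey and all 20722 in light grey, with lines for 95% Wilson intervals. For NRF1 the subunits stand at 22.2%, beside 15.1% of marked and 9.69% of all genes. For SP/KLF they stand at 37.5%, beside 66.4% of marked and 45.7% of all genes.

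Genes that build or regulate the complexes were marked about as often as the subunits. Of 61 such genes on autosomes, 58 were marked (95.1%, 86.5 to 98.3%). This stands beside 50.1% of all protein-coding autosomal genes and 80.7% of those with a CpG-rich promoter. With peaks of at least 1 kb the share was 83.6%, beside 97.2% of ubiquitous subunits and 44.6% of all genes. Among assembly factors, 14 of 14 for complex I, 4 of 4 for complex II, 5 of 6 for complex III, 18 of 19 for complex IV and 4 of 4 for ATP synthase (including its inhibitor Atpif1 under the older symbol) were marked. Both genes for the electron carrier cytochrome c, Cycs and the testis form Cyct, were marked. Of the regulators 11 of 12 were. The unmarked ones were Ttc19, an assembly factor of complex III (1489 bp from a peak), Cox19, a copper-related assembly factor of complex IV (5654 bp), and Ppargc1a, the coactivator known as a driver of mitochondrial gene expression (631.831 kb). Ttc19 and Cox19 were marked at the start of another isoform, and Ppargc1a was not.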

How the data were processed

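H3K27ac was measured by ChIP-seq with the antibody ab4729 in 2 replicates per group. According to the methods, the authors trimmed reads with Cutadapt, aligned them with bwa meme to mm10 and the human genome together, discarded duplicates (Picard, 2.9.1 in the submitters' processing notes) and reads of low mapping quality (SAMtools, 1.4), used LanceOtron to call peaks, merged peaks within 2 kb with Bedtools and filtered them by height and by ATAC-seq summits. The peak list used here gives start and end positions in mm10 (GRCm38), with no count, height or depth. According to the paper, raw reads and browser tracks were also deposited, and they were not used here. A promoter without a listed peak may have failed a filter.

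Peaks were compared with GENCODE M21, an earlier release than the study's, in Python 3.11.15 with numpy 2.4.6 and matplotlib 3.10.9. Each gene's TSS came from its isoform of longest genomic span. Only protein-coding and lincRNA genes were read, so starts of other gene types and of further isoforms were not counted as neighbours. Sequence and motifs were read from the GRCm38 genome. Shares were given Wilson intervals, and no test was made, because 1 pooled list has no replicates. With 2969 simulated peaks placed near promoters, 0 calls over the 20722 genes were wrong. The same TSS and window defined the true calls, so this checks the overlap code only. Named genes were unmarked members, tissue-specific isoforms and partners, core subunits, the 5 widest and 5 narrowest peaks, members whose call changed, and unmarked pathway genes. Other genes are examples chosen after their values were seen. Members and lists were chosen with earlier results of these data known. The values of 1 member enter the counts and medians but are not reported here by name, and it is left out of the map of peaks. Treated samples were not analysed here, and protein sequences were not used here.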

Additional observations from a re-analysis of the deposited data

How the results depend on the processing

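The shares of marked promoters and the median peak width were computed again with windows of 500 bp and 2 kb, requiring the TSS position in a peak, with other isoforms, with peaks of at least 1 kb, with an overlap of at least 500 bp, without genes that have another TSS within 2 kb, and the shares of complexes I and IV also with complexes assigned by symbol alone. A value was said to have moved when it fell outside the interval of its main value. Of 93 summary values of members and pathway genes under these and the added alternatives, 7 moved. Of 16 values of all protein-coding autosomal genes set beside them, 12 moved, and their marked share was 44.5 to 52.3%. These counts do not compare stability, since the interval is narrow for many genes and wide for few. With a window of 2 kb, the share of all genes (51.2%, beside 50.1%) moved. That of the 7 tissue-specific isoforms (42.9%, beside 28.6%) did not. The share of marked assembly and regulatory genes was 98.4% with any isoform, with the isoform of longest spliced length and with the APPRIS principal isoform, since Ttc19 and Cox19 were then marked, and 83.6% with peaks of at least 1 kb. Without the Atp5o entry of unknown start, the shares of ubiquitous subunits and of ATP synthase subunits were 100%. At the promoters of RefSeq, held for 59 of the 72 ubiquitous subunits, 79.7% were CpG-rich, beside 66.7% at the TSS used, and the cause was not tested. The share with the YY1 letters was 15.3% there, beside 9.72%. Leaving out the Atp5o entry and using RefSeq promoters, for the motif and CpG-rich shares, were chosen after seeing the data, and so were 3 further settings. The share with an opposite-strand TSS was 33.3% within 500 bp and 34.7% with protein-coding partners alone, beside 37.5%, and the median width without peaks that hold another TSS was 1966 bp, beside 2008 bp. Among single members, Cox8b was marked with a window of 2 kb, Ndufa8 and Cox7c were unmarked when the TSS itself had to lie in a peak, and Ndufa8 was unmarked with peaks of at least 1 kb. No paired analysis was possible because the 1 list used is pooled over both control replicates, and for the same reason no replicate could be left out. The identity of paralogous proteins was not run. Depth is unknown from the list.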

Other observations

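The place of the motif letters was compared with that over all promoters. The ETS letters (CCGGAAG) had 18 matches in ubiquitous subunits, and the middle of 9 of them lay at or downstream of the TSS, which is 50% of the matches, beside 25.5% of the 2868 matches over all protein-coding autosomal promoters. Of the 7 matches to the YY1 letters (AAGATGG), 5 (71.4%) lay there, beside 32.6% of 1364. The NRF1 letters (TGCGCA) had 4 of 19 matches there (21.1%), beside 18.2%. The SP and KLF letters (7 of 49, 14.3%, beside 13.8%), the NF-Y letters (3 of 44, 6.82%, beside 8.70%) and the TATA box letters (1 of 10, 10%, beside 10.1%) were placed much as in all promoters. The CREB letters had 2 of 5 matches there (beside 15.6% of 527) and the ESRRA letters 1 of 2 (beside 6.45% of 93). The TSS is that of 1 annotated isoform, the numbers of matches are small, and several matches can lie in 1 promoter. At Cox8a, for example, the ETS letters had their middle at position -2 and again at position 35, where the TSS is position 0.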
